A study of Mus musculus with 8 samples.

Results

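The genes described here are 10 genes of the melanocyte lineage, the cells that make melanin. They were chosen by name from the 53801 genes of the count table, of which 29043 had a count in at least 1 library, and all 10 were among the 15283 genes that received an adjusted p. Dct, Tyr and Tyrp1 encode the enzymes of melanin synthesis. Pmel forms the fibrils on which melanin is laid down, and Mlana is a melanosomal protein. Slc45a2 and Oca2 are melanosomal transport proteins that set the pH in which tyrosinase works, Mitf and Sox10 are transcription factors of the lineage, and Gpnmb is a melanosomal glycoprotein that macrophages and other cells also make.

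RNA had been sequenced from stromal cells of subcutaneous MO5 tumors at day 8. MO5 is a line of B16 mouse melanoma cells that contains the ovalbumin gene, and B16 itself is a pigmented line that transcribes melanocyte genes. The host mice were bacterial artificial chromosome transgenics named ADAM12-GFP (Cre-Ires-GFP), in which Adam12 regulatory sequence drives Cre and GFP, on the C57Bl/6 background and implanted at 8 to 12 weeks of age. Dead cells, doublets, CD45+ and CD31+ cells had been gated out, PDPN+PDGFRα+ cells had been kept, and these were split by the reporter into ADAM12+ (GFP+) and ADAM12- (GFP-) cells. Both groups therefore shared the tumor line, the transgene and the gate, and differed in GFP. There were 4 libraries per group. In the methods n counts mice unless stated otherwise. Whether the GFP+ and GFP- libraries of the same number came from the same mouse is not given in the sources used here, and p-values measure the spread between these libraries.

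In melanocytes, MITF, a basic helix-loop-helix factor, binds E-box sequences upstream of the pigment enzyme genes, and SOX10 acts with it and on the Mitf gene itself. Mitf is transcribed from several promoters, of which one is used in melanocytes and others in many other cell types. Gpnmb is a further target of MITF and, outside the lineage, of the related factors TFE3 and TFEB.

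The 250 bases before the transcription start are shown for 5 of the genes, taken from RefSeq on GRCm38.p6, 5′ to 3′ in the direction of transcription. The 3 pigment enzyme genes are shown because their windows share an extended E-box, the M-box TCATGTGCT, and Mitf and Gpnmb because their ratio to the pigment genes differed between the groups. Capitals mark the M-box, or the E-box CATGTG read on either strand. Of the 3 windows of Mitf, the one farthest along the gene is shown.
Dct (chr14:118052247-118052496, minus strand): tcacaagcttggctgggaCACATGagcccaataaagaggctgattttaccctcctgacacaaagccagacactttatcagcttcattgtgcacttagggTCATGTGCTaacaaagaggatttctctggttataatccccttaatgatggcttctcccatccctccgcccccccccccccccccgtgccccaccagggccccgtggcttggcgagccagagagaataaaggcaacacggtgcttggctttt
Tyr (chr7:87493513-87493762, minus strand): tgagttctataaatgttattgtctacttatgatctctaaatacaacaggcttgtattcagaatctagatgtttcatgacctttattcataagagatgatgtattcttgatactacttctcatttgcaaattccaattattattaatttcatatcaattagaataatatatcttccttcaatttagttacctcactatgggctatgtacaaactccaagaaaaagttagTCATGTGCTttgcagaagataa
Tyrp1 (chr4:80833963-80834212, plus strand): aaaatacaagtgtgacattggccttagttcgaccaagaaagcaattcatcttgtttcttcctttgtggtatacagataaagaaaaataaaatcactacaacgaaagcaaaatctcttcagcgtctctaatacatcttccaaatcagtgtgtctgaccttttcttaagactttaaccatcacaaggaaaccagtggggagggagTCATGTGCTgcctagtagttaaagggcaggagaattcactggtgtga
Mitf (chr6:97991533-97991782, plus strand): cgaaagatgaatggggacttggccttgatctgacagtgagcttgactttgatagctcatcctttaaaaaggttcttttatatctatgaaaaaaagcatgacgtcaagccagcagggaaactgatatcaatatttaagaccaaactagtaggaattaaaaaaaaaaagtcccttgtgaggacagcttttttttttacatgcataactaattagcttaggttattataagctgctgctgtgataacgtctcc
Gpnmb (chr6:49036268-49036517, plus strand): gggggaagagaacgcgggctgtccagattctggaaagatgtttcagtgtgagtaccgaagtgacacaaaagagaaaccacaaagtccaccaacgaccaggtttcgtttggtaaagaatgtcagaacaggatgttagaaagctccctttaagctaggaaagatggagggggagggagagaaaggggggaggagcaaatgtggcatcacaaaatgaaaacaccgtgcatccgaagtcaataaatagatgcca

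RefSeq windows were matched for 6 of the 10 genes, those above and Oca2. The M-box stood at bases -151 to -143 from the start in Dct, -22 to -14 in Tyr and -47 to -39 in Tyrp1, so 3 of the 6 genes had it, against 0.335% of all 32851 windows searched on both strands. The E-box CATGTG, which the M-box contains, was also found in Oca2 and occurred in 12.3% of all windows. The E-box CACGTG was found in 0 of the 6 genes and in 6.02% of windows, and the core SOX motif ACAAAG was found in Dct, Gpnmb, Oca2 and Tyrp1 and in 16.5% of windows. These motifs were chosen after the sequences had been seen, and a match describes the letters in the window only.

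Total counts ranged from 883144 to 17535099 in the GFP- libraries and from 8776925 to 31666734 in the GFP+ libraries. The shallowest, GFP- replicate 3, still held 53 counts of Sox10 and 36 of Oca2, its lowest among the 10 genes. GFP+ replicate 1 stood apart from the other GFP+ libraries across all genes: 16313 genes had a count in it, against 20219 to 24138 in GFP+ replicates 2 to 4 and 15414 in GFP- replicate 3. Of 11212 genes with a normalised count of 20 or more in each of GFP+ replicates 2 to 4, 217 (1.94%) had 0 counts in GFP+ replicate 1, whereas 0 genes did in each of the other 3 GFP+ libraries examined in the same way, a limit set after the values had been seen. Summed over 10 fibroblast genes, the libraries held 28007 to 54169 CPM (counts scaled to a library of 1e6) in GFP- and 63243 to 64149 CPM in GFP+, so that the labelled stromal cell type was found in every library. The 2 most abundant of these genes, Col3a1 and Col1a1, encode fibrillar collagens. The GFP- library with the lowest fibroblast sum, replicate 4, was also the one with the highest pigment gene level, and the part of this in the differences below was not tested.

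All 10 melanocyte genes were lower in GFP+ than in GFP- cells. DESeq2 called 10 of 10 (adjusted p under 0.05), against 4.76% of the tested genes called in that direction, and edgeR called 10 of 10 against 2.28%. For each of the 10, every GFP+ library had a lower normalised count than every GFP- library, which held for 5.95% of tested genes. The median log2 fold change of the 10 genes was -2.99, and that of all tested genes was -0.01. Without GFP+ replicate 1 all 10 were still called by DESeq2, with log2 fold changes from -3.31 for Sox10 to -1.05 for Mitf. In bulk RNA, fewer cells of a type and less RNA per cell cannot be told apart, nor can reads of tumor cells from reads of the sorted stromal cells.

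**Figure D1:**
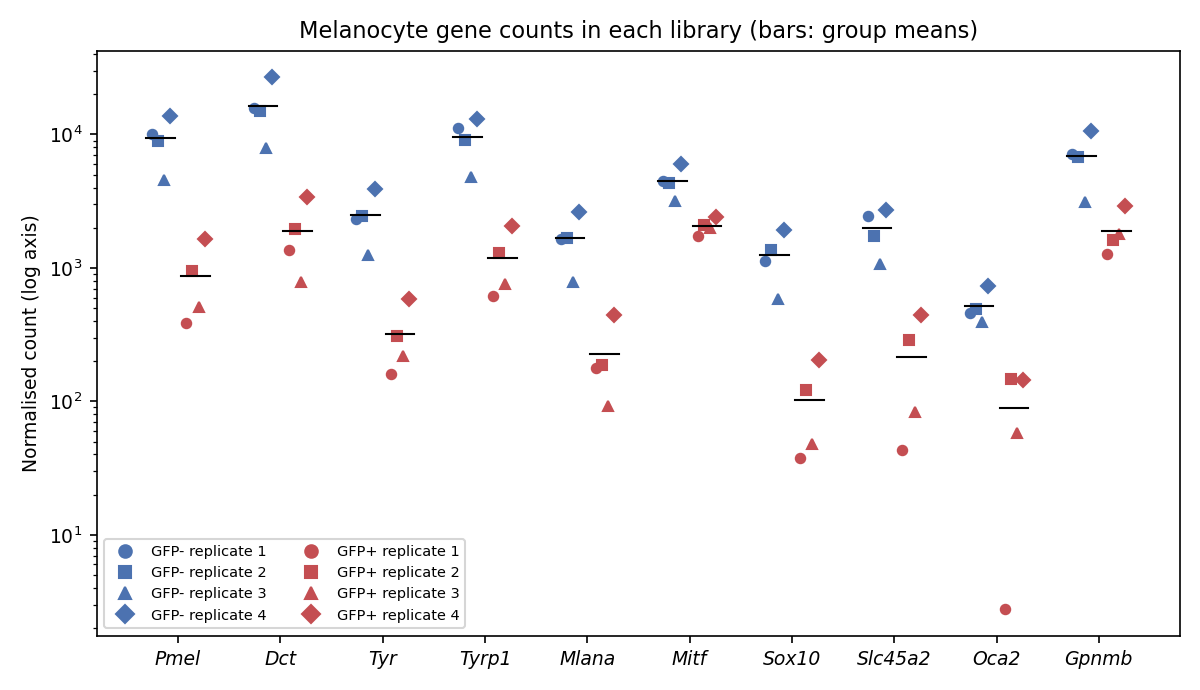
Normalised counts (log axis) of the 10 melanocyte genes in the 4 GFP- and 4 GFP+ libraries, 1 point per library with the shape giving the replicate and the bar the group mean. Every GFP+ point lies below every GFP- point of the same gene, by a small gap for Mitf and Gpnmb, and Oca2 falls to 2.78 in GFP+ replicate 1.

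Among the pigment enzymes, Dct, which encodes dopachrome tautomerase, had normalised counts (raw counts divided by the size factor of the library) of 15891, 15029, 7900 and 26796 in GFP- replicates 1 to 4 and 1353, 1947, 788 and 3417 in GFP+ replicates 1 to 4. The lowest GFP- library was thus above the highest GFP+ library, and the log2 fold change was -3.13 ± 0.42 (SE; DESeq2 adjusted p = 4.1e-11). Tyrp1, which encodes a tyrosinase-related protein, had 11100, 9101, 4801 and 13073 in GFP- and 611, 1293, 759 and 2054 in GFP+, a log2 fold change of -3.01 ± 0.38 (adjusted p = 2.35e-12). Tyr, the rate-limiting enzyme, had 2324, 2451, 1242 and 3902 in GFP- and 160, 309, 219 and 589 in GFP+, a log2 fold change of -2.96 ± 0.41 (adjusted p = 1.42e-10). For these enzymes GFP- replicate 4 was the highest and replicate 3 the lowest GFP- library, and GFP+ replicate 4 was the highest GFP+ library.

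The structural melanosome genes fell in every GFP+ library as well. Pmel had normalised counts of 10141, 8940, 4538 and 13744 in GFP- and 389, 947, 512 and 1653 in GFP+ (log2 fold change -3.41 ± 0.42, DESeq2 adjusted p = 6.76e-13). Mlana had 1642, 1689, 780.1 and 2628 in GFP- and 179, 186, 92.2 and 447 in GFP+ (log2 fold change -2.90 ± 0.45, adjusted p = 1.54e-08). The 3' and 5' ends of the Pmel locus overlap Dgka by 105 bases and Cdk2 by 837 bases, both on the opposite strand, and the counting used strand.

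The transporters fell as well, with more spread among the GFP+ libraries. Slc45a2 had normalised counts of 2466, 1726, 1066 and 2716 in GFP- and 43.0, 290, 83.0 and 443 in GFP+ (log2 fold change -3.21 ± 0.74, DESeq2 adjusted p = 5.33e-04). Its log2 fold change was -2.87 without GFP+ replicate 1 and -3.84 without GFP+ replicate 4. Oca2 had 460, 494, 396 and 732 in GFP- and 2.78, 148, 57.6 and 146 in GFP+ (log2 fold change -2.55 ± 0.90, adjusted p = 0.0493 by DESeq2 and 0.0424 by edgeR). GFP+ replicate 1 was the lowest library for both, and for Oca2 its value rested on 2 raw counts. The call of Oca2 was the weakest of the 10. It was lost in 8 of the 15 other fits, with DESeq2 adjusted p of up to 0.197, which was the value without GFP- replicate 4. Without GFP+ replicate 1 it was 3.99e-07, with a log2 fold change of -2.15.

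The transcription factors differed from each other. Sox10 had normalised counts of 1119, 1370.2, 582 and 1921 in GFP- and 37.5, 121, 47.6 and 205 in GFP+, and its log2 fold change of -3.59 ± 0.49 (DESeq2 adjusted p = 1.1e-10) was the largest fall of the 10. Mitf had 4461, 4308, 3175 and 6029 in GFP- and 1737, 2094, 2004 and 2400.2 in GFP+, and its log2 fold change of -1.13 ± 0.21 (adjusted p = 8.41e-06) was the smallest. The 4 GFP+ libraries of Mitf lay close together, whereas those of Sox10 spread over more than a 5-fold range. Gpnmb came next after Mitf, with 7113, 6769, 3131 and 10651 in GFP- and 1269, 1628, 1788 and 2891 in GFP+ (log2 fold change -1.87 ± 0.35, adjusted p = 5.17e-06).

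Levels of different genes were compared as CPM per kilobase of exon. In GFP- cells the order began with Pmel (413 ± 184, SD, n = 4), Tyrp1 (340 ± 135) and Dct (284 ± 150), whose spreads overlapped, and ended with Sox10 (41.6 ± 20.5), Tyr (35.5 ± 17.4) and Oca2 (13.4 ± 4.54). Mitf was the sixth, at 73.6 ± 22.5. In GFP+ cells Mitf was the third at 30.0 ± 5.72, between Pmel at 35.2 ± 24.4 and Dct at 29.1 ± 18.8, and these neighbours did not differ beyond their spread. Oca2 was again the lowest, at 2.09 ± 1.72.

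The next question was whether a single set of proportions among melanocyte transcripts, scaled up or down as a whole, described each library. The summed counts of 5 pigment genes (Pmel, Dct, Tyr, Tyrp1 and Mlana, called core pigment genes here) made up 0.385, 0.366, 0.198 and 0.653% of all counts in GFP- replicates 1 to 4 and 0.0221, 0.0446, 0.0208 and 0.0768% in GFP+ replicates 1 to 4. The mean share was 0.401 ± 0.188% (SD, n = 4) in GFP- and 0.0411 ± 0.0262% in GFP+, a 9.76-fold difference. Within a group the highest library exceeded the lowest by 3.29-fold in GFP- and 3.70-fold in GFP+, while the lowest GFP- library exceeded the highest GFP+ library by 2.58-fold. Core pigment transcripts were therefore found in every GFP+ library, and their level varied more than 3-fold among libraries of 1 label.

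Within the core, the group means of the proportions were close to one another. In counts not divided by length, Dct made up 41.2% of the core in GFP- and 41.7% in GFP+, Tyrp1 24.5 and 26.9%, Tyr 6.29 and 7.25%, and Mlana 4.24 and 4.998%. Pmel made up 23.8 ± 0.768% in GFP- and 19.1 ± 3.19% in GFP+ (SD, n = 4). Single GFP+ libraries spread more widely than these means, from 33.2 to 50.3% for Dct, 22.7 to 32.0% for Tyrp1 and 5.93 to 9.24% for Tyr. These proportions were not equal within counting error, even among libraries of 1 group: the chi-square per degree of freedom was 57.7 over the GFP- libraries and 22.4 over the GFP+ libraries, where counting error alone gives values near 1.

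Each gene was then expressed as its log2 ratio to the other core pigment genes in the same library, a value that does not depend on depth or scaling. The groups did not overlap in this ratio for 4 of the 10 genes, of which Mitf and Gpnmb were higher and Pmel and Sox10 lower in GFP+. Across 10585 genes whose normalised count averaged 50 or more, the ratio to the core did not overlap for 90.4%, since genes that did not fall with the core have a higher ratio in GFP+. The 4 differences each had an exact permutation p of 0.0286 (two-sided, 70 divisions of the 8 libraries), the smallest that 4 against 4 libraries allow. The 10 ratio tests were left unadjusted, and 0.0286 would not stay under 0.05 after adjustment over 10 tests.

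**Figure D2:**
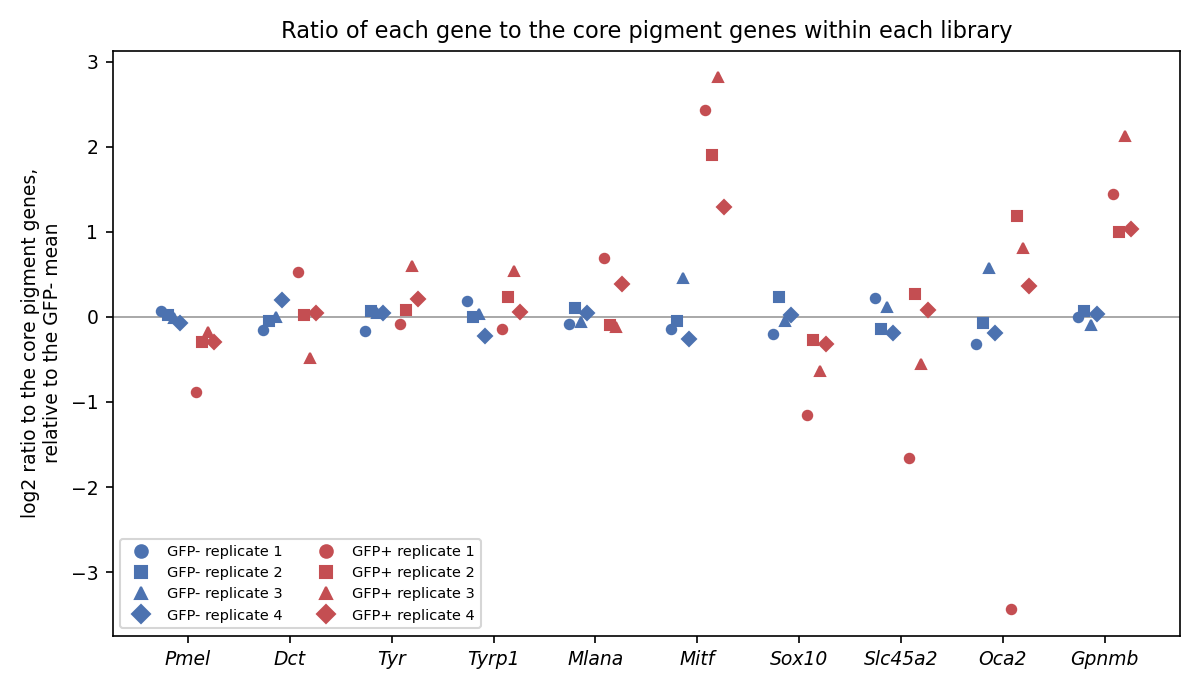
Log2 ratio of each gene to the summed other core pigment genes within each library, with the mean of the 4 GFP- libraries set to 0 for each gene. Points for Mitf and Gpnmb in GFP+ lie above all GFP- points, those for Pmel and Sox10 below them, and Oca2 in GFP+ replicate 1 is the lowest point of the plot.

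For Dct, Tyr, Tyrp1 and Mlana, the group means of the log2 ratio differed by 0.03, 0.20, 0.17 and 0.22, with overlapping groups (exact permutation p = 0.857, 0.2, 0.343 and 0.429). The SD over all 8 libraries fell from 1.86 for log2 CPM to 0.232 for the log2 ratio of Tyr, from 1.97 to 0.290 for Dct, from 1.88 to 0.238 for Tyrp1 and from 1.88 to 0.289 for Mlana. The SD of log2 CPM contains the difference between the groups, and within a group the genes did not always move together: from GFP+ replicate 1 to replicate 3, Tyr went from 13.1 to 19.2 CPM and Tyrp1 from 50.1 to 66.5 CPM, while Dct went from 111 to 69.1 CPM and Mlana from 14.7 to 8.08 CPM. A p above the threshold does not show that their proportions were equal.

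Pmel had 32.8, 31.6, 30.8 and 29.6 counts per 100 counts of the other core genes in GFP- replicates 1 to 4 and 16.9, 25.4, 27.6 and 25.4 in GFP+ replicates 1 to 4. Its ratio was lower in all 4 GFP+ libraries, and the difference of -0.41 in log2 ratio (exact permutation p = 0.0286) was -0.26 without GFP+ replicate 1, still with no overlap. Sox10 had 2.72, 3.68, 3.05 and 3.19 counts per 100 core counts in GFP- and 1.42, 2.60, 2.02 and 2.52 in GFP+, a difference of -0.60, or 0.662-fold (exact permutation p = 0.0286). Without GFP+ replicate 1 the Sox10 difference was -0.41. In this unadjusted comparison Sox10 thus had a somewhat lower ratio to the summed core in GFP+. Its log2 fold change (-3.59 ± 0.49) and that of Pmel (-3.41 ± 0.42) did not differ beyond their SE. The libraries with the least core RNA, GFP+ replicates 1 and 3, had the lowest Sox10 ratios, which rested on 27 and 62 raw counts.

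Mitf had the largest group difference in the ratio of the 10 genes. It had 10.9, 11.6, 16.5 and 10.03 counts per 100 core counts in GFP- replicates 1 to 4 and 64.6, 44.7, 84.5 and 29.4 in GFP+ replicates 1 to 4, a difference of 2.11 in log2 ratio, or 4.31-fold (exact permutation p = 0.0286). Gpnmb had 17.3, 18.2, 16.3 and 17.7 in GFP- and 47.2, 34.8, 75.4 and 35.4 in GFP+, a difference of 1.40, or 2.64-fold (exact permutation p = 0.0286). Without GFP+ replicate 1 the differences were 2.00 for Mitf and 1.38 for Gpnmb, still with no overlap. For both genes the ratio was highest in GFP+ replicate 3, which had the smallest core share, and in GFP- replicate 3, with the smallest core share of its group, the ratio was the highest of the group for Mitf and the lowest for Gpnmb.

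The proportions of the GFP- libraries were used to predict counts in GFP+ libraries from their core counts. For Mitf the prediction was 233, 1344, 371 and 2921 counts, and 1251, 5006, 2608 and 7154 were found, or 5.37, 3.72, 7.04 and 2.45 times the prediction. The counts above prediction came to 116, 146, 151 and 134 CPM (137 ± 15.4, SD, n = 4) in libraries whose core level differed 3.70-fold. For Gpnmb the found counts were 2.72, 2.00, 4.35 and 2.04 times the prediction, and the amount above it was 65.8, 77.6, 121 and 139 CPM (101 ± 34.6). All 8 predictions lay outside the exact 95% Poisson intervals of the counts found, which cover counting error only, and so did 26 of the 32 predictions for the other 8 genes.

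A straight line of CPM on core CPM over the 8 libraries, a description added after these values had been seen, was fitted to each gene. Extended to a core level of 0, the line gave 156 CPM for Mitf, with 152 to 165 CPM when 1 library was left out. The 156 CPM came to 83.7% of the mean Mitf level in GFP+ and 34.1% of that in GFP-. The line takes the same value at a core level of 0 for both groups, which was not tested. It gave 88.0 CPM for Gpnmb (71.8 to 101), or 51.2% of the GFP+ mean and 12.5% of the GFP- mean. For Sox10 it gave -3.57 CPM (-4.46 to -3.02) and for Slc45a2 5.58 CPM (-2.39 to 9.58). For Tyr it gave 1.76 CPM (0.235 to 5.71) and for Mlana 1.44 CPM (-0.656 to 3.02). For Pmel it gave -8.24 CPM (-28.8 to -1.84) and for Dct -47.1 CPM (-72.2 to 22.85). The sign thus changed for Slc45a2, Mlana and Dct when 1 library was left out. Positive values were not particular to Mitf and Gpnmb: it gave 48.5 CPM for Tyrp1 (1.36 to 63.3), or 44.8% of the GFP+ mean, and 5.30 CPM for Oca2 (3.28 to 7.72), or 64.0%.

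**Figure D3:**
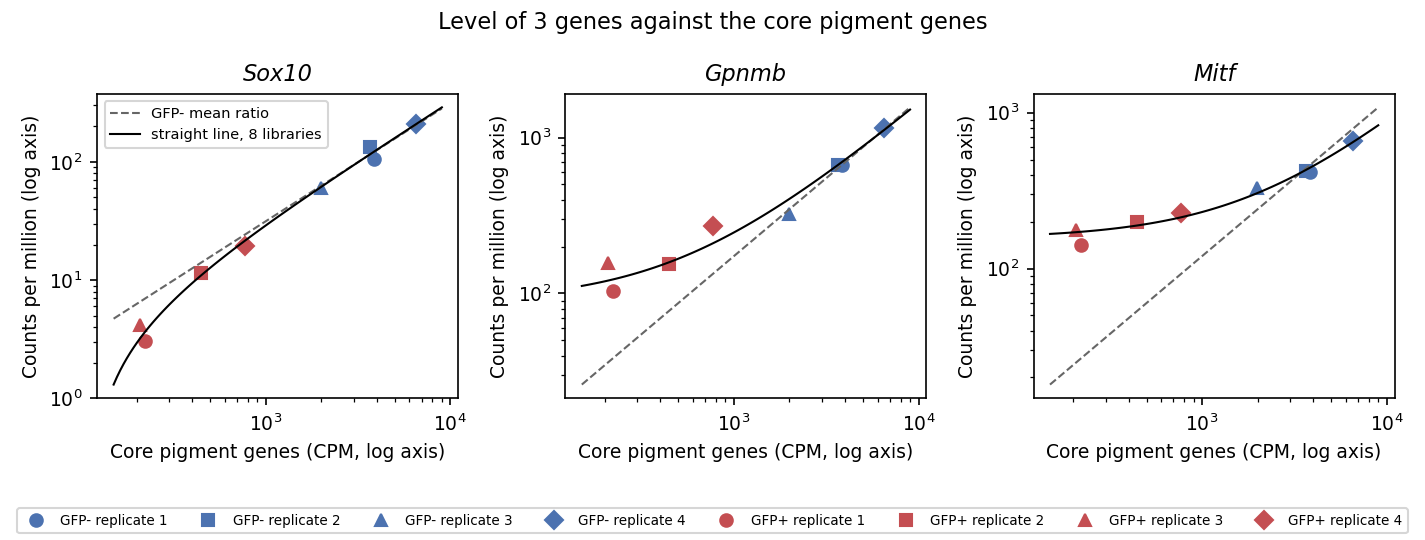
CPM of Sox10, Gpnmb and Mitf against the CPM of the 5 core pigment genes in the 8 libraries, both on log axes, with the mean GFP- ratio as a dashed line and a straight-line fit on the linear scale as a solid curve. Sox10 lies below the dashed line in all 4 GFP+ libraries, at 0.443 of it in replicate 1 and 0.639 to 0.824 of it in the others, whereas Mitf and Gpnmb lie above it in all 4 GFP+ libraries.

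Macrophage genes were examined beside Gpnmb, since macrophages also make it. CD45+ cells, which include macrophages, had been gated out before the split. Of 15 genes on the list, 13 were tested, 1 was called lower (Mertk) and 0 higher, by both tools, against 4.76 and 2.28% of all tested genes called lower. The summed level ran from 182 to 762 CPM in GFP- and from 113 to 544 CPM in GFP+, with Trem2 and Itgam at or near 0, and Lyz2 and Ptprc, which encodes CD45, were the most abundant. In GFP+ replicates 1 to 4 it was 141, 544, 113 and 270 CPM, and in the same libraries Gpnmb stood 65.8, 77.6, 121 and 139 CPM above prediction. The part of these cells in the Gpnmb values was not tested.

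The transporters differed in GFP+ replicate 1, the library that lacked genes of many kinds. Oca2 had 1.12, 1.33, 2.08 and 1.218 counts per 100 core counts in GFP- and 0.129, 3.17, 2.45 and 1.79 in GFP+, with a group difference of -0.27 (exact permutation p = 0.971) that became 0.78 without GFP+ replicate 1. In GFP+ replicate 1 it had 2 counts (exact 95% Poisson interval 0.242 to 7.22) where 27.0 were predicted, and in GFP+ replicates 2 to 4 it had 2.27, 1.74 and 1.28 times the prediction. Slc45a2 had a difference of -0.47 (exact permutation p = 0.429), which was -0.07 without GFP+ replicate 1, where it was at 0.311 of the prediction. Against all other melanocyte genes, Mitf and Gpnmb included, the Slc45a2 difference was -1.08 and the groups did not overlap (exact permutation p = 0.0286).

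Further melanocyte genes were low in this library. Of 19 genes of the other melanocyte lists that were called lower in GFP+, 9 were at less than 0.5 times the prediction in GFP+ replicate 1, against 0, 2 and 0 in GFP+ replicates 2 to 4, a limit set after the values had been seen. Trpm1, which encodes a cation channel, had 4 counts where 97.7 were predicted, Rab27a, which tethers melanosomes to actin, had 8 where 49.0 were predicted, and Slc24a5, a melanosomal ion exchanger, had 30 where 96.5 were predicted. Tfap2a and Cited1 had 0 counts where 9.40 and 13.2 were predicted. In the same library 6 of the 19 were at more than 2 times the prediction, against 4, 4 and 2 in GFP+ replicates 2 to 4. They were Ap3d1 (8.03), Hps3 (4.43), Myo5a (3.63), Pax3 (2.98), Met (2.72) and Ppargc1a (2.02), and the median over the 19 genes was 1.21. GFP+ replicate 3, with a like core share of 0.0208%, had Trpm1 at 0.444 and Rab27a at 1.46 times the prediction. The low values of GFP+ replicate 1 were not particular to lineage genes. Across all genes, 803 of the 11212 (7.16%) lay below 0.25 times the lowest of GFP+ replicates 2 to 4, against 0.126, 0.444 and 0.146% in the same comparison for GFP+ replicates 2 to 4. Genes of the lists that were not called were among the low ones: Bloc1s2 had 0 counts in GFP+ replicate 1 and 79, 57 and 88 in GFP+ replicates 2 to 4, Hps1 had 11 and 267, 178 and 408, and the Schwann cell gene Pou3f1 had 0 and 35, 38 and 80. The part of this general loss of genes in the Oca2, Slc45a2 and Trpm1 values was not tested.

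The other genes of the pathway were taken from fixed lists, all chosen with earlier results of these data known. Of 30 genes of melanosome formation and transport, 28 were tested, and DESeq2 called 10 lower and 0 higher in GFP+, while edgeR called 9 lower, against 4.76 and 2.28% of all tested genes called lower. The median log2 fold change of the list was -0.60. Besides Trpm1 (-3.24 ± 1.08), Slc24a5 (-3.25 ± 0.73) and Rab27a (-2.94 ± 0.81), the genes called lower were Gpr143, the receptor of ocular albinism (-3.15 ± 0.89, edgeR adjusted p = 0.0966), Mlph (-2.91 ± 0.36) and Myo5a (-1.50 ± 0.31), which link melanosomes to actin together with Rab27a, and Rab38 (-2.70 ± 0.41), Mreg (-2.12 ± 0.47), Hps3 (-1.62 ± 0.29) and Ap3d1 (-0.74 ± 0.19), which act in sorting and transport. The other 18 tested genes were not called, for example Cd63 (-0.24 ± 0.22) and Dtnbp1 (0.12 ± 0.16).

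Relative to the core, 5 of the 19 called genes had ratios that did not overlap between the groups, all higher in GFP+, against 90.4% of the 10585 genes compared in either direction. They were Ap3d1 (difference of 2.50 in log2 ratio), Myo5a (1.71), Hps3 (1.68), Met (0.89) and Rab38 (0.51). Trpm1, Slc24a5, Mlph and Rab27a overlapped between the groups in this ratio.

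Of 15 receptors and regulators of the lineage, 13 were tested, and DESeq2 called 7 lower and 2 higher, against 4.76% of all tested genes called lower and 4.66% called higher. The genes called lower were the receptors Erbb3 (-2.79 ± 0.56) and Met (-2.29 ± 0.31), the transcription factors Pax3 (-2.76 ± 0.40), Tfap2a (-3.05 ± 0.79, edgeR adjusted p = 0.0577) and Tbx2 (-3.06 ± 0.48), and the coactivators Cited1 (-3.39 ± 1.12) and Ppargc1a (-2.63 ± 0.36). The other 4 tested genes were not called. Kit, the receptor of stem cell factor, had normalised counts of 59.7, 82.4, 176 and 28.4 in GFP- and 322, 471, 693 and 54.7 in GFP+, and the groups overlapped, since GFP+ replicate 4 was below GFP- replicates 1 to 3, of which replicate 3 rested on 16 raw counts (log2 fold change 2.25 ± 0.65, DESeq2 adjusted p = 0.0095, edgeR adjusted p = 0.0669). Snai2, a transcription factor of neural crest and mesenchyme, rose by both tools (1.65 ± 0.37), the 1 gene of the list that edgeR called higher, against 2.83% of its tested genes. Mc1r, the receptor of melanocyte-stimulating hormone, was listed at 0 in all 8 libraries, as was Hps6 of the melanosome list. Genes overlapping these were not examined.

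**Figure D4:**
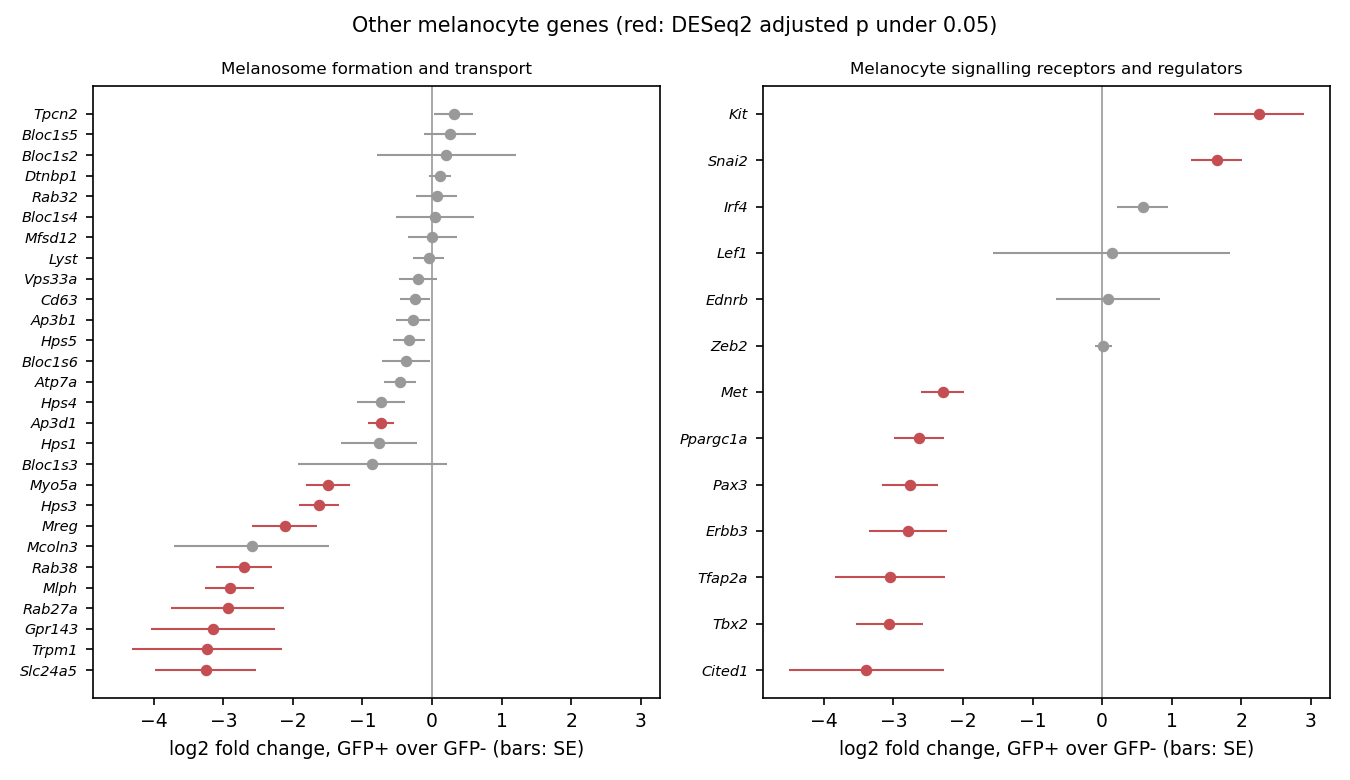
DESeq2 log2 fold changes with SE of the tested genes of melanosome formation and transport (left, 28 genes) and of melanocyte receptors and regulators (right, 13 genes), GFP+ over GFP-, with genes of adjusted p under 0.05 in red. The called genes of the left panel all lie below 0, and Kit and Snai2 are the called genes above 0 in the right panel.

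The relatives of the 2 transcription factors did not pass the test. Of the MiT and SoxE families, Tfe3 (log2 fold change 0.19 ± 0.23), Tfeb (-0.55 ± 0.39), Sox8 (0.24 ± 1.30) and Sox9 (-0.26 ± 0.31) were tested and 0 were called by DESeq2 or edgeR (0 at an unadjusted p under 0.05), and Tfec was at or near 0. The summed level of these relatives was 83.5 to 107 CPM in GFP- and 66.4 to 92.1 CPM in GFP+, with overlapping groups. Of 8 further MITF targets of melanoma, 5 were tested and 2 were called lower by both tools, Cdk2 (-2.61 ± 0.77) and Dusp4 (-2.85 ± 0.80), against 4.76 and 2.28% of all tested genes. Cdk2 lies against Pmel on the opposite strand. In GFP+ replicate 1 Cdk2 had 17 counts where 69.6 were predicted from the core, and Pmel had 280 counts where 517 were predicted.

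Sox10 and several other lineage genes are shared with Schwann cells. Of 14 Schwann cell genes, 10 were tested. DESeq2 called 4 lower, Cdh19, S100b and Gfap among them, and 1 higher (Egr2), and edgeR called 1 lower (Cdh19) and 1 higher. Of all tested genes, DESeq2 called 4.76% lower and 4.66% higher, and edgeR 2.28 and 2.83%. The summed level was 219 to 356 CPM in GFP- and 171 to 254 CPM in GFP+, with Pmp22 and Egr2 the most abundant by mean normalised count. Sox2 was listed at 0 in all 8 libraries, and genes overlapping it were not examined. The part of these cells in the Sox10 values was not tested.

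Markers of other cell types were counted in the same way. CD31+ cells, which include endothelial cells, had been gated out before the split. Of 8 endothelial genes, 7 were tested and 1 was called lower (Vwf, against 4.76% of all tested genes by DESeq2), with summed levels of 174 to 310 CPM in GFP- and 200 to 307 CPM in GFP+, and Tek and Kdr the most abundant. Of 8 keratinocyte genes, 4 were tested and 0 were called by DESeq2 or edgeR (1 of the 4, Dsp, at an unadjusted p under 0.05), and Dsp and Krt10 were the most abundant. Their summed level was 3.397 to 36.2 CPM in GFP- and 3.39 to 7.40 CPM in GFP+, and Krt5 was at 0 in every GFP+ library. Of the 10 fibroblast genes, 7 were called higher in GFP+ by DESeq2 and 6 by edgeR (4.66 and 2.83% of all tested genes), the sort markers Pdgfra (1.32 ± 0.17) and Pdpn (0.70 ± 0.21) among them.

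Genes whose pattern was most like that of the core were ranked by the SD over the 8 libraries of their log2 ratio to it, among 10585 genes with a median SD of 1.91. The 9 genes outside the melanocyte set with the smallest SD were Arfgef3 (0.192), Sort1 (0.251), Myo7a (0.303), Syt4 (0.304), Rab38 (0.309), Chchd10 (0.325), Bhlhe41 (0.326), Fam174b (0.343) and Mlph (0.399). Arfgef3 ranked the first of all, with 3173, 5839, 211 and 11617 raw counts in GFP- and 164, 1437, 300 and 2855 in GFP+. The ranks of the melanocyte genes in the same order were 2 for Tyr, 3 for Tyrp1, 5 for Mlana, 6 for Dct, 9 for Pmel, 17 for Sox10, 41 for Slc45a2, 86 for Gpnmb, 310 for Mitf and 699 for Oca2. Each of the 5 core genes was left out of its own reference, the shared libraries and depth enter every rank, and the likeness is a description over 8 libraries.

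**Figure D5:**
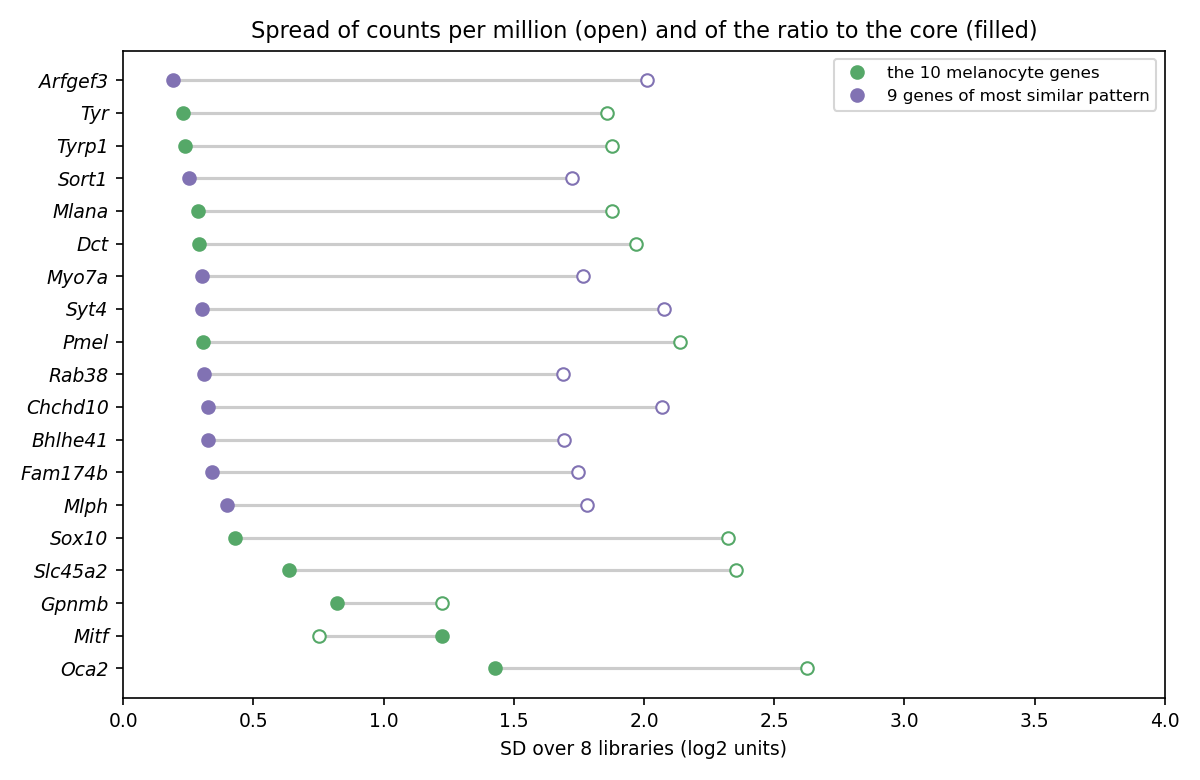
SD over the 8 libraries of log2 CPM (open circles) and of the log2 ratio to the core pigment genes (filled circles), for the 10 melanocyte genes in green and the 9 other genes of most similar pattern in purple. The ratio has the smaller SD for 9 of the 10 melanocyte genes, and Mitf, with 0.754 for log2 CPM and 1.225 for the ratio, is the exception.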

How the data were processed

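RNA from 4 GFP+ and 4 GFP- sorts had been made into libraries with a stranded kit for small inputs (SMARTer Pico v2) and sequenced on a NextSeq instrument. The authors trimmed reads with cutadapt 3.4, mapped them to GRCm38 with STAR 2.7.3a and assigned them to Ensembl genes by strand with featureCounts 2.0.1. They deposited raw read counts per gene and library, which were the basis of all values here, and a normalised score per gene and library (count divided by the DESeq2 size factor, rounded), which was used only to check the size factors computed here. All 232344 deposited scores were within 0.5 of the values computed here. The authors' comparison columns (mean, fold change, p-value and adjusted p) were not used. Unused per-sample columns: 0.

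DESeq2 1.42.0 (R 4.3.3) was run on all genes with a count, with group as the only term, default size factors, Wald tests, Cook and independent filters and Benjamini-Hochberg adjustment, and genes of adjusted p under 0.05 were called. Alternatives were edgeR 4.0.16 (quasi-likelihood), limma 3.58.1 voom, TMM scaling, other filters, the replicate number as a block and each library left out. Code was tested on simulated data. Ratios were log2 of (count + 0.5) over (summed core count + 0.5), leaving out the gene itself, and were compared by exact permutation tests. Genes outside the core were compared with all 5 core genes. A prediction is the mean GFP- ratio (from the mean of the log2 ratios) times the core count of a library, and intervals cover counting error only, since reads were not collapsed into molecules. Depth ran from 883144 to 31666734 counts. Gene positions and exon lengths came from GENCODE M21 on GRCm38. Replicates of a group differed by more than counting noise (chi-square per degree of freedom 10.2 to 81.3 over 12 pairs). The labels give no batch.

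The genes and lists were chosen with earlier results of these data known. Genes named were all 10 melanocyte genes, every called gene of the melanosome, regulator, MiT and SoxE and MITF target lists, the 2 most abundant genes of each other list, the 10 genes most like the core, and genes overlapping a melanocyte gene. Of the genes this rule selects or the lists hold, some are not reported here. Further genes were named after their values were seen.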

Additional observations from a re-analysis of the deposited data

Results flagged for a closer look

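The log2 ratio of Tyr to the other core pigment genes was -4.06 in GFP- replicate 1, a value that stood farther from the other 3 GFP- libraries, relative to the range of the group, than the 95% critical value of Dixon's test for 4 samples allows (gap over range, 0.882). The other GFP- libraries lay between -3.85 and -3.83. It was 1 of 40 groups of 4 libraries examined, and chance alone passes this limit in about 1 in 20 groups.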

How the results depend on the processing

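Of the 10 genes, 9 kept their call and direction under all 15 other fits. Oca2 alone lost it, and the number called was 9 or 10 in each fit, from 9 to 10 with 1 library left out, and 9 at an adjusted p under 0.01. With the replicate block 10 were called. Across genes, the deviations of same-numbered libraries correlated at -0.166 to 0.247, over 0.1 in 1 of 4 pairs. Of 8 libraries, 3 correlated best with their own number. Such correlations cannot tell whether same-numbered libraries share a mouse. For each of the 10 genes the block gave a smaller SE, for example 0.161 against 0.420 for Dct and 0.205 against 0.448 for Mlana. With it the DESeq2 adjusted p of Oca2 was 1.84e-05. The core level was lowest in replicate 3 and highest in replicate 4 of both groups. The replicate block changed the calls over all genes from 727 lower and 712 higher to 737 and 755.

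The log2 difference in core share was -3.38, and -3.75 to -3.10 with 1 library left out. The number of genes whose ratio to the core did not overlap was 4, from 4 to 5 with 1 library left out (the fifth being Tyr without GFP+ replicate 1), and 7 when all other melanocyte genes served as the reference. That reference contains Mitf and Gpnmb, so the pigment genes fall against it by construction, and the groups ceased to overlap for Dct (-0.76), Tyrp1 (-0.54) and Slc45a2 (-1.08), and still overlapped for Tyr (-0.42) and Mlana (-0.39). Pmel, Sox10, Mitf and Gpnmb did not overlap under any of the 11 alternatives. The ratio difference of Oca2 ran from -0.86 to 0.78. With 1 library left out, exact tests could not go below 0.0571.

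Over all genes, DESeq2 called 727 lower and 712 higher, edgeR 327 and 405, and DESeq2 without GFP- replicate 4 called 469 and 500. GFP- replicate 3 and GFP+ replicate 1 held the fewest core counts, 1753 and 1938. Without GFP+ replicate 1 the adjusted p of Oca2 was 3.99e-07 and that of Slc45a2 2.8e-08.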
